A study of Gallus gallus with 4 samples.

Results

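The genes described here encode cell adhesion molecules, extracellular matrix proteins with the enzymes that act on them, and axon guidance molecules with related leucine-rich repeat membrane proteins. They were chosen by gene family: every line of the authors' deposited table with a mean above 0 whose symbol began with one of a fixed set of family names (COL, ITGA, PCDH, SEMA and the like), leaving out SEMA5A. This gave 26 of the 17108 genes of the table, 8 in the adhesion class, 11 in the matrix class and 7 in the guidance class. Apart from SEMA5A, which was left out by name, the rule used only symbols and the mean being above 0. The rule was set with earlier results of these data known, so the choice was not blind to the fold changes. SEMA5A itself was higher in Hoxb8, by 1.26 log2 units. Keeping it would have raised the number of changed genes in the guidance class and among all members.

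RNA was sequenced from trunk neural tube cells of chick embryos that were electroporated in ovo at stage 11 of the Hamburger-Hamilton (HH) scale and collected 18 hours later. The Hoxb8 group (2 libraries) received Hoxb8-pCIG at 1 µg/µl together with pCIG at 1 µg/µl, and the control group (2 libraries) received pCIG alone at 2 µg/µl. pCIG is a plasmid with a ubiquitous promoter that expresses green fluorescent protein (GFP), alone or with an inserted gene. Sorted cells of both groups were thus meant to carry plasmid and GFP, and the promoter does not limit the added Hoxb8 to a particular neural cell type. In the Hoxb8 group pCIG also expresses GFP, so a sorted cell could carry pCIG without Hoxb8-pCIG. The share of such cells was not tested. The labels do not say whether libraries came from separate embryo pools, so the p-values measure only the spread between these libraries, which may be technical.

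The file held the authors' comparison of Hox with WT, WT being taken as the pCIG control, and gave for each gene one mean over the 4 libraries, a log2 fold change, its standard error and p-values. Values in single libraries were not analysed here, so each gene is described by these summaries. A positive log2 fold change means higher in Hoxb8, per the title of the authors' deposited table. HOXB8 had 0 lines under its symbol, but only 1432 of the 17108 genes carry a symbol, so it may be listed without one. The direction was not checked on the introduced gene. Of the 22 marker genes looked up for neural progenitors, neurons and neural crest, 0 stood in the table under their symbol, so the labelled tissue was not checked against its markers either. Of 8 paraxial mesoderm and 7 surface ectoderm markers, 1 of each did, UNCX and GRHL2. Their log2 fold changes were -0.067 and -0.49 in the authors' deposited table (DESeq2 adjusted p = 0.907 and 0.223). Summed over genes, the deposited means came to 79237283 normalised counts per library.

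Cadherin family proteins, immunoglobulin superfamily proteins and claudins join cells to each other, and integrins join cells to matrix. Collagens, link proteins and other matrix glycoproteins form the material around cells, and metalloproteases of the MMP and ADAMTS families cut it. Semaphorins steer growing axons and migrating cells, and leucine-rich repeat membrane proteins act in guidance, synapse formation and receptor signalling. In the neural tube, adhesion holds progenitors together as an epithelium, and newly born neurons give up their apical contacts as they delaminate.

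In the authors' deposited table, 6 of the 24 members with an adjusted p changed at an adjusted p under 0.05, against 15.2 percent of all 12574 genes tested. Among the members 4 rose (8.72 percent of all genes did) and 2 fell (6.49 percent of all genes did). The risers were the protocadherin gene PCDH8, the immunoglobulin superfamily gene IGSF3, the leucine-rich repeat gene FLRT3 and the matrix glycoprotein gene ADAMTSL3. The genes that fell were the integrin gene ITGA2 and the matrix glycoprotein gene ADAMTSL1. The share of members called was thus 25.0 percent. Members could only come from genes with a symbol. Of the 1133 other such genes tested, 17.7 percent were called, 10.9 percent higher and 6.80 percent lower. The difference from either background rests on few genes and was not tested. At an unadjusted p under 0.05 the authors' deposited table held 10 of the 24 members, against 26.7 percent of all genes. At an adjusted p under 0.01, 5 members were called, against 9.42 percent of all genes, and at under 0.1, 9 members, against 19.8 percent. Of the log2 fold changes of the tested members, 11 were positive and 13 negative, with a median of -0.014, against a median of -0.0053 over all genes tested. Over the other tested genes with a symbol the median was 0.035. The sign of the members' median depended on the setting, since it was 0.11 with the median of genes over 10000 set to 0, a shift of 0.12 for every gene, and 0.10 for the 14 members with a mean of at least 400. The adhesion class had 3 of 7 tested members called, against 2 of 10 in the matrix class and 1 of 7 in the guidance class, differences between classes that were not tested. Read support differed too: the median of the mean counts was 2402 in the adhesion, 671 in the matrix and 398 in the guidance class, and the median standard error was 0.14, 0.22 and 0.21 log2 units in the same order. The part of read support in the counts of calls was not tested.

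**Figure D1:**
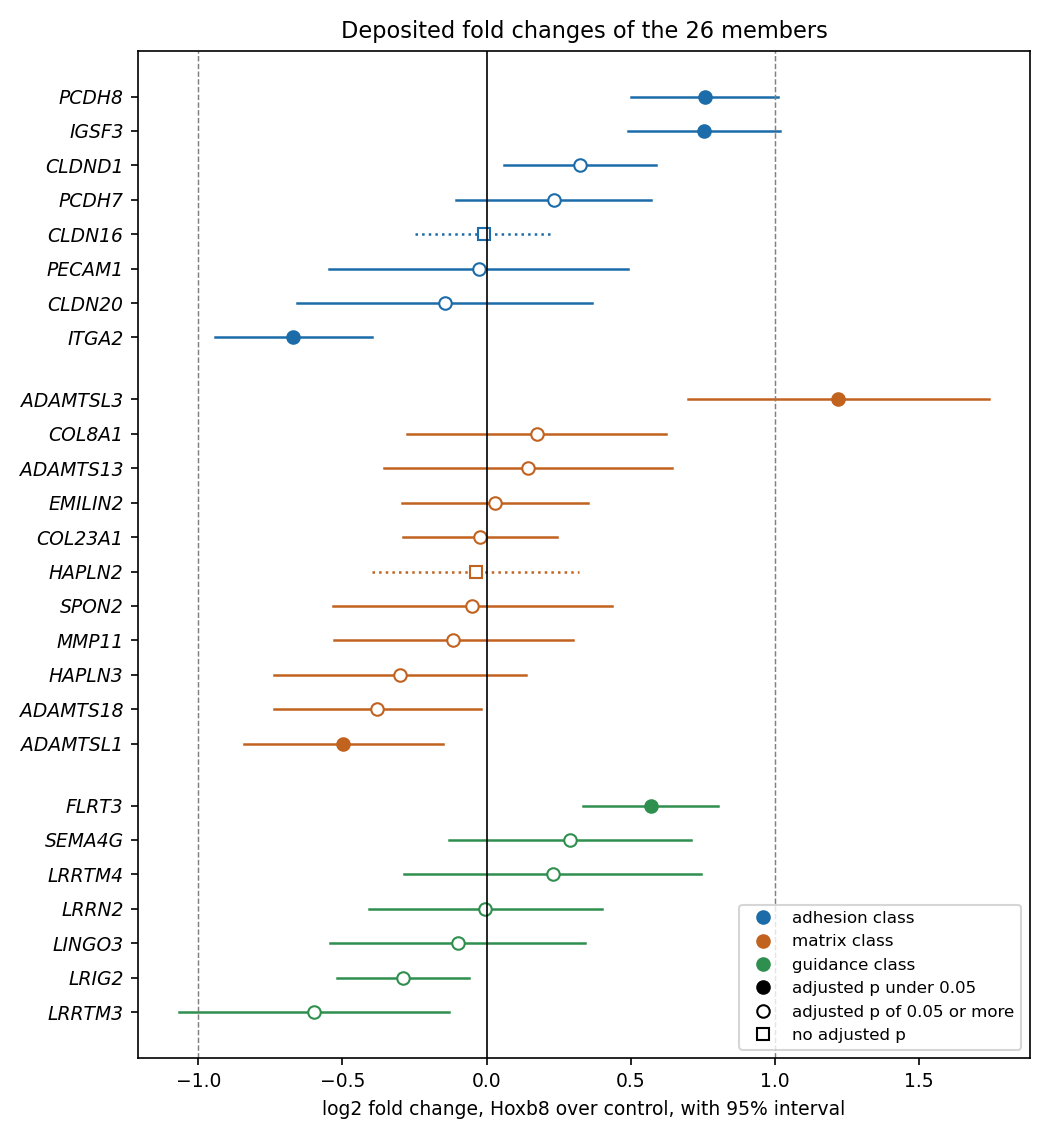
Log2 fold changes of Hoxb8 over control with 95% intervals (horizontal axis) for all 26 members, grouped by class down the page, from the authors' deposited table. Filled points are the 6 members at an adjusted p under 0.05, squares with dotted lines the 2 members without an adjusted p, and dashed lines mark a log2 fold change of 1 either way. ADAMTSL3 is the 1 member whose point lies beyond them.

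In the adhesion class PCDH8 and IGSF3 rose and ITGA2 fell, and the authors' deposited table put the median of its 7 tested members at 0.23 log2 units. That median was 0.11 with CLDN16 included, which has no adjusted p, and 0.36 with the median of genes over 10000 set to 0. PCDH8 encodes a protocadherin, a membrane protein related to cadherins that acts in cell sorting in frog and mouse embryos. The authors' deposited table gave it a rise of 0.76 ± 0.13 log2 units (standard error, here and below), or 1.69-fold, at a mean of 8100 normalised counts (DESeq2 adjusted p = 3.66e-07). IGSF3, an immunoglobulin superfamily membrane protein, rose by nearly the same amount in the authors' deposited table, 0.75 ± 0.13, at a mean of 4168 (adjusted p = 9.09e-07). Both log2 changes had 95% intervals that ended just above 1, from 0.50 to 1.01 for PCDH8 and from 0.49 to 1.02 for IGSF3. Among the 6174 tested genes with a positive fold change PCDH8 ranked 195 and IGSF3 ranked 214 by p.

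ITGA2, the alpha 2 subunit of a collagen-binding integrin, moved the other way and fell by 0.67 ± 0.14 log2 units, a level 1.59-fold lower in Hoxb8, per the authors' deposited table (adjusted p = 4.37e-05, mean 2402). No other integrin gene was among the members. PCDH7, the second protocadherin, had 0.23 ± 0.17 log2 units per the authors' deposited table and did not pass (adjusted p = 0.412). Its log2 interval, from -0.11 to 0.57, overlapped that of PCDH8, and the difference between the paralogues was not tested.

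Of the claudins, which seal tight junctions, none was called. CLDND1, a claudin-like membrane protein that is not a classical claudin, lay just outside the threshold with 0.32 ± 0.13 log2 units, per the authors' deposited table (adjusted p = 0.0851). The classical claudin gene CLDN20 stood at -0.15 ± 0.26 at a mean of only 50.6 normalised counts, and CLDN16, a claudin of magnesium transport in the mammalian kidney, had a mean of 5.00 and no adjusted p in the authors' deposited table. CLDN20 did not pass (adjusted p = 0.779), and CLDN16 was too low to be tested.

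PECAM1, an adhesion molecule of endothelium and blood cells, had a log2 fold change of -0.028 ± 0.27, per the authors' deposited table (adjusted p = 0.963, mean 1998). Its standard error was 1.78 times the median of the 501 genes nearest in mean, and only 18 of the 12574 tested genes, PECAM1 included, had a ratio as high. Of 17 endothelium and blood markers looked up, 2 stood in the table under their symbol, PECAM1 and LMO2, and LMO2, a LIM-only transcription cofactor, rose by 1.48 ± 0.17 in the authors' deposited table. The part of endothelial or blood cells in these values was not tested. In these sorted bulk samples, fewer cells of a type and less RNA per cell cannot be told apart, for this gene and for every other.

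The matrix class had 2 of 10 tested members called (20.0 percent), 1 in each direction, against 15.2 percent of all genes tested. Its median was -0.037 log2 units, from the authors' deposited table (-0.091 centred on genes of like mean and 0.088 with the median of genes over 10000 set to 0). Both calls were ADAMTS-like genes, which encode secreted glycoproteins that resemble ADAMTS proteases but lack the protease domain. Per the authors' deposited table ADAMTSL3 rose by 1.22 ± 0.27 log2 units, a 2.33-fold rise and the largest change of any member, at a mean of only 80.4 normalised counts (adjusted p = 0.000119). ADAMTSL1 fell by 0.50 ± 0.18 log2 units at a mean of 1001, the call nearest to the threshold in the authors' deposited table (DESeq2 adjusted p = 0.0359). The log2 intervals of the 2 paralogues ran from 0.70 to 1.74 for ADAMTSL3 and from -0.84 to -0.15 for ADAMTSL1. Since both genes were called, in opposite directions, these intervals could not overlap. Their fold changes lay 1.72 apart on the log2 scale, a difference that was not tested.

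The depth behind ADAMTSL3 was low. Its standard error of 0.267 lay at the ceiling of the authors' deposited table, where the highest standard error of any gene was 0.267. Standard errors fell again at the lowest means, from which it is inferred that the authors' fit moderated fold changes toward 0, that of ADAMTSL3 included. Between means of 50 and 100, 47 of 731 tested genes were called higher and 8 lower. The call of ADAMTSL1 was lost when fold changes were set so that the median of genes with a mean over 10000 was 0, a shift of 0.12 on the log2 scale (adjusted p = 0.135, against 0.00940 to 0.704 over all settings tried).

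Neither tested ADAMTS protease gene was called. ADAMTS18, a secreted metalloprotease, had -0.38 ± 0.18 log2 units, per the authors' deposited table (adjusted p = 0.158, mean 1107), and ADAMTS13, which cleaves von Willebrand factor in mammals, had 0.14 ± 0.25 (adjusted p = 0.776, mean 202). MMP11, a matrix metalloprotease gene, had -0.12 ± 0.21 log2 units, again per the authors' deposited table (adjusted p = 0.785). Every log2 interval of the 3 protease genes lay between -0.74 and 0.64.

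The structural matrix genes did not pass either. COL23A1, a membrane-spanning collagen, had -0.024 ± 0.14 log2 units, per the authors' deposited table (adjusted p = 0.937, mean 2594), with an interval from -0.29 to 0.24. COL8A1, a short-chain network-forming collagen, stood at 0.17 ± 0.23 (adjusted p = 0.688, mean 1088), and EMILIN2, a glycoprotein of elastic fibres, at 0.031 ± 0.16 in the authors' deposited table. The standard error of COL8A1 was 1.36 times the median of genes nearest in mean, a ratio that 62 tested genes reached, while the other 22 tested members apart from PECAM1 had ratios of 0.939 to 1.11. HAPLN3, a link protein that ties proteoglycans to hyaluronan, stood at -0.30 ± 0.22 and the secreted spondin gene SPON2, at a mean of 34.2, at -0.049 ± 0.25 in the authors' deposited table. HAPLN2, the other link protein gene, had a log2 fold change of -0.038 at a mean under the authors' filter at 17.5 and no adjusted p. COL2A1, a fibrillar collagen gene, was listed at 0 and so was no member, whereas CLDN16, at 5.00, had the lowest mean of the members. The table lists 3 ribosomal protein genes at 0 as well, so this does not show that COL2A1 was silent.

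**Figure D2:**
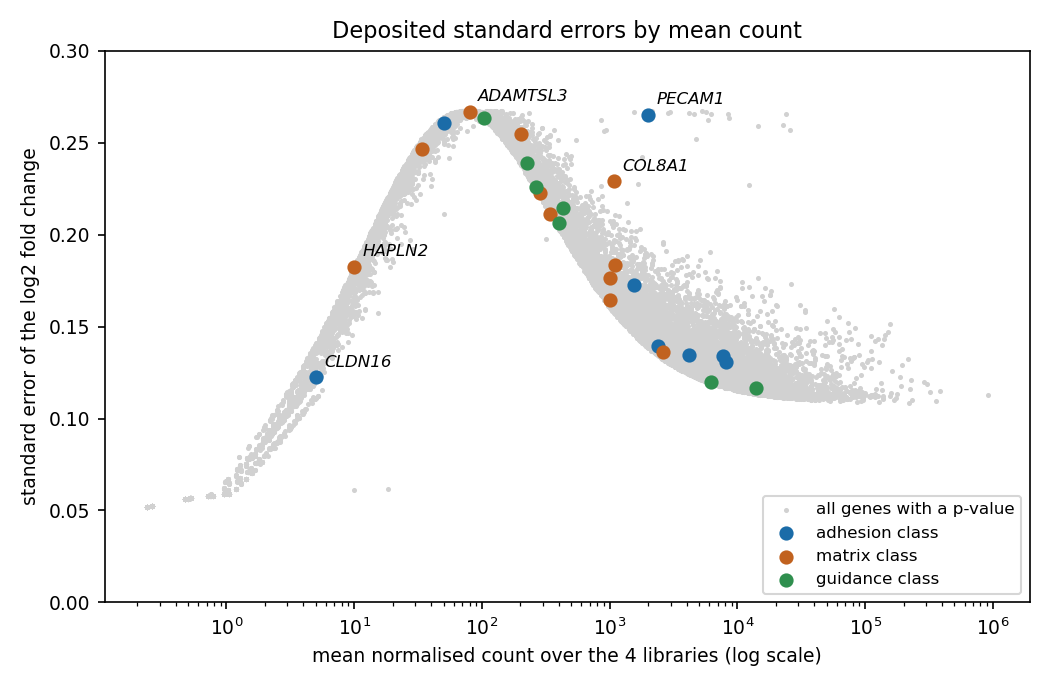
Standard error of the log2 fold change (vertical axis) against the mean normalised count over the 4 libraries (horizontal axis, log scale) for the members, coloured by class, and for all genes with a p-value (grey), from the authors' deposited table. PECAM1 and COL8A1 sit above most genes of like mean, ADAMTSL3 sits at the ceiling of 0.267, and standard errors fall again at the lowest means, where HAPLN2 and CLDN16 lie.

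The guidance class had 1 of 7 tested members called (14.3 percent), against 15.2 percent of all genes tested. Its median was -0.0040 log2 units, from the authors' deposited table. The median went either way with the scaling, to -0.17 centred on genes of like mean and to 0.12 with the median of genes over 10000 set to 0. FLRT3, a leucine-rich repeat membrane protein that binds UNC5 guidance receptors and latrophilins in mammals, rose by 0.57 ± 0.12 log2 units, or 1.48-fold, at a mean of 6253 per the authors' deposited table (adjusted p = 5.56e-05). Its log2 interval ran from 0.33 to 0.80. SEMA4G, a membrane-spanning semaphorin and the 1 classical guidance cue among the members, had 0.29 ± 0.21 log2 units and did not pass, per the authors' deposited table (adjusted p = 0.408, mean 427). For comparison, the excluded cue gene SEMA5A rose by 1.26 ± 0.17 log2 units, per the authors' deposited table.

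The other leucine-rich repeat genes did not pass, and 2 lay just outside the threshold on the lower side. LRRTM3, a postsynaptic adhesion protein of the neurexin-binding LRRTM family, had -0.60 ± 0.24 log2 units, per the authors' deposited table (adjusted p = 0.0704, mean 225). LRIG2, which in mouse limits the shedding of a guidance receptor, had -0.29 ± 0.12 log2 units, per the authors' deposited table (adjusted p = 0.0734). Its mean of 14087 normalised counts was the highest of any member. LRRTM4, a paralogue of LRRTM3, stood at 0.23 ± 0.26 (adjusted p = 0.636, mean 103), and the log2 intervals of the pair, from -1.07 to -0.13 for LRRTM3 and from -0.29 to 0.75 for LRRTM4, overlapped. LINGO3, a paralogue of the Nogo receptor partner LINGO1, stood at -0.10 ± 0.23 and LRRN2, another neuronal leucine-rich repeat gene, at -0.0040 ± 0.21 in the authors' deposited table. All but 1 of the 7 guidance members belong to leucine-rich repeat families, and placing these in the adhesion class instead left SEMA4G alone in the guidance class, with 0 calls.

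Direction and level were linked over the whole table, so the members were also read against genes of like mean. At means of 100 to 1000 normalised counts, 0 of 8 members were called in the authors' DESeq2 comparison, against 19.0 percent of all genes there. The 8 held 1 gene, LRRTM3, at an unadjusted p under 0.05, against 31.5 percent of all genes there. At means of 1000 to 10000, 5 of 12 members were called, against 15.1 percent of all genes there, although ADAMTSL1 fell into that range only narrowly. Under a mean of 100, 1 of 3 tested members was called (ADAMTSL3), against 5.53 percent of genes there, and over 10000 the single member LRIG2 was not called, against 17.9 percent. Centred on the median of the 501 genes nearest in mean, the 6 called members stayed called, with log2 fold changes of 0.83 for PCDH8, 0.77 for IGSF3, 0.62 for FLRT3, 1.14 for ADAMTSL3, -0.66 for ITGA2 and -0.60 for ADAMTSL1.

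Centring also moved 2 members past the threshold. LRRTM3 stood at -0.80 after centring, since genes of its mean had a median log2 fold change of 0.20 (adjusted p = 0.0102, against 0.0102 to 0.792 over all settings tried). CLDND1 stood at 0.41, since genes of its mean had a median of -0.085 (adjusted p = 0.0233, against 0.00786 to 0.824 over all settings tried). LRIG2 moved toward 0, to -0.17, where genes of its mean had a median of -0.12 (adjusted p = 0.395, against 0.0680 to 0.802 over all settings tried). After centring, 8 of the 24 tested members were called, 5 higher and 3 lower, against 12.6 percent of all genes (7.59 percent higher and 5.01 percent lower). The guidance class then held 1 riser (FLRT3) and 1 gene that fell (LRRTM3), and the adhesion class 3 risers and 1 gene that fell.

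**Figure D3:**
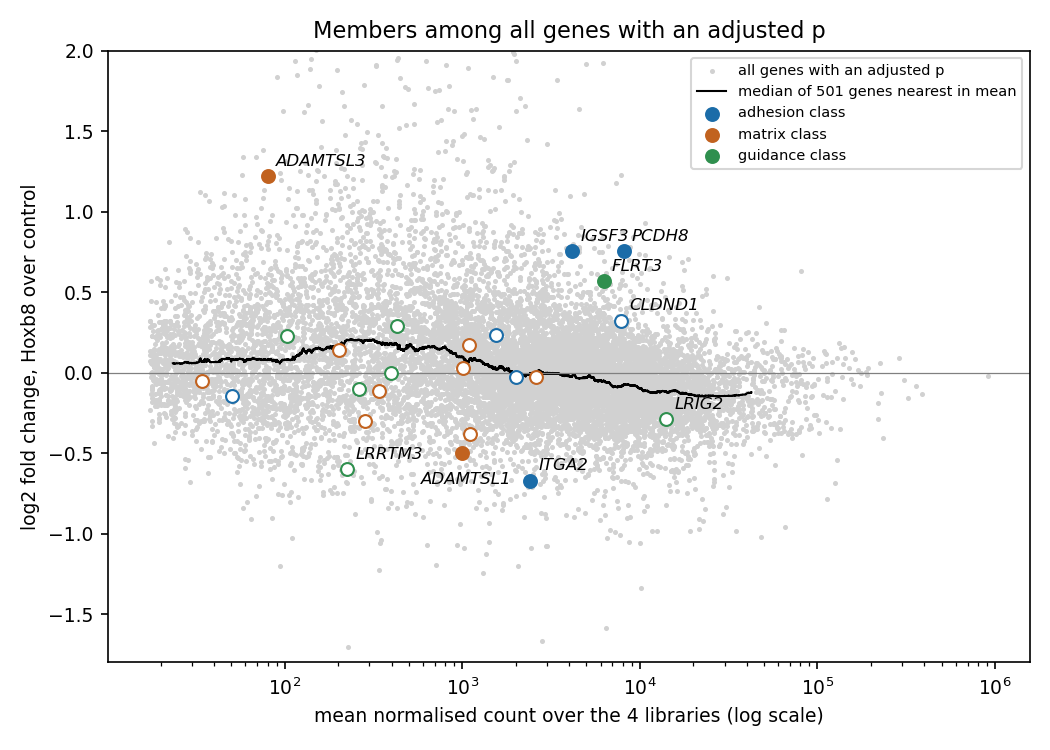
Log2 fold change of Hoxb8 over control (vertical axis) against the mean normalised count over the 4 libraries (horizontal axis, log scale) from the authors' deposited table, with the tested members coloured by class (filled at an adjusted p under 0.05) over all tested genes (grey). The black line, the median of the 501 genes nearest in mean, lies above 0 at low means and below 0 at high means. A further 29 genes, none of them a member, lie above the plotted range at log2 fold changes over 2.

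For the 18 tested members that were not called, the 95% intervals limit how large a change could have been missed. In 17 of them the log2 interval of the authors' deposited table lay within 1 on either side of 0, the exception being LRRTM3. Over all tested genes that were not called, 10383 of 10661 met the same bound, so it is not particular to the members. These intervals take the deposited standard errors at face value. At low means, fold changes moderated toward 0, as inferred above, would understate any change. The Wald scores of all tested genes had a central spread of 1.69, where 1 would be seen for unchanged genes without moderation. With standard errors 1.69 times as wide, 14 of the 18 intervals lay within 1 of 0. Of the 24 tested members 2 then had an adjusted p under 0.05, against 2.48 percent of all genes tested. Of the 6 called members PCDH8 and IGSF3 kept their call, while over all genes 312 of the 1913 calls were kept (adjusted p = 0.0305 and 0.0400, against lowest values of 1.11e-09 and 3.63e-09 over all settings tried). ITGA2 (0.126), FLRT3 (0.135), ADAMTSL3 (0.167) and ADAMTSL1 (0.704) did not, these being the highest adjusted p over all settings tried for each.

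**Figure D4:**
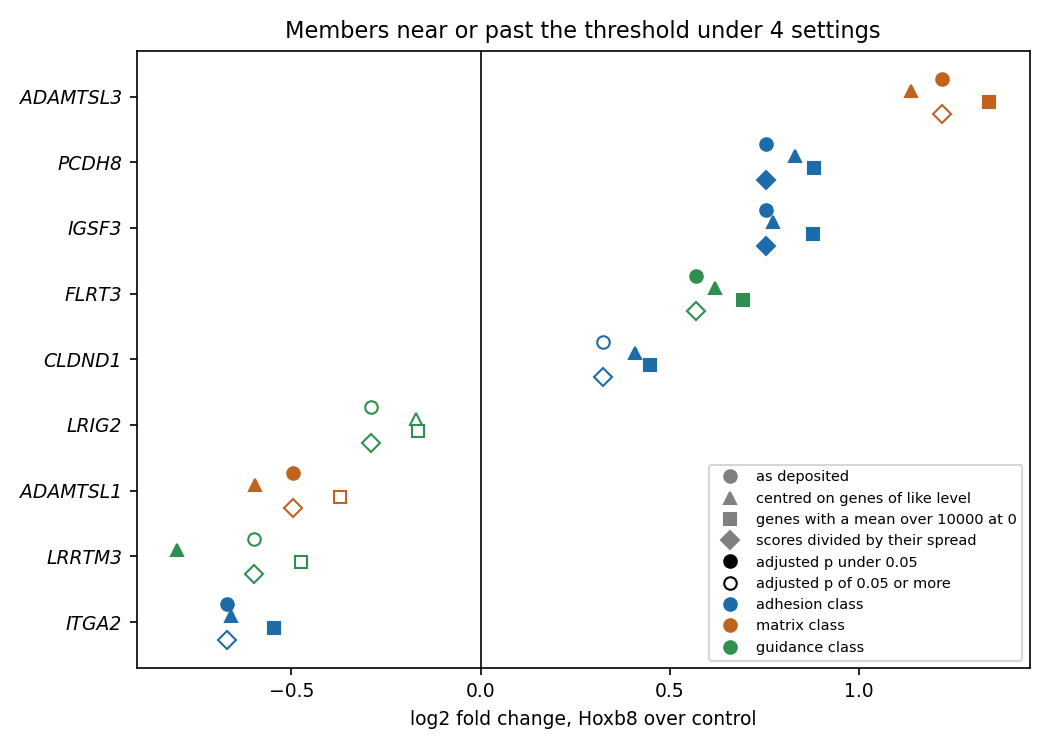
Log2 fold change of Hoxb8 over control (horizontal axis) for the 6 called members and the 3 nearest to the threshold under 4 settings (symbols), filled where the adjusted p was under 0.05. PCDH8 and IGSF3 are filled under each of the 4 settings, and every one of the 9 genes keeps its side of 0.

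Genes that overlap on the chromosome can share reads where the counting ignores strand, and the strand setting is not given in the sources used here. In the RefSeq gene table of the later chicken assembly GRCg7b, 25 of the 26 members were found by symbol (all but MMP11), and 17 of them overlapped another gene. The share of all genes that overlap another is not given here, so this count is not shown to be particular to the members. Of the called members, FLRT3 overlapped MACROD2, ITGA2 overlapped a long non-coding RNA gene, and ADAMTSL1 overlapped both a non-coding and a coding gene, whereas PCDH8, IGSF3 and ADAMTSL3 overlapped none. COL23A1, whose fold change was near 0, overlapped HNRNPAB and PHYKPL, and PECAM1 overlapped TEX2. Whether exons of these pairs overlap in the Galgal4 genes that were counted, or any reads were shared, was not tested.

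The members are a small share of their families. The GRCg7b table holds 318 protein-coding symbols that match the family names, of which 27 stood in the authors' deposited table under their symbol (SEMA5A and COL2A1 among them), 8.49 percent. The share was 8 of 116 in the adhesion class, 11 of 141 in the matrix class and 8 of 61 in the guidance class. Among these symbols 0 of 20 classical and related cadherins, 0 of 12 laminins, 0 of 7 plexins, 0 of 4 ROBO receptors and 0 of 4 ephrins could be found, so the counts above do not describe these families.

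Of 126 further adhesion, matrix and guidance genes looked up by symbol, 11 had an adjusted p in the authors' deposited table. Of these 2 rose and 4 fell, against 8.72 percent of all genes higher and 6.49 percent lower. The genes to look up were chosen with earlier results of these data known, and they include SEMA5A, the gene left out of the rule. These counts are therefore not independent of the fold changes, and nothing is concluded from their distance to the shares over all genes. Among tested genes with a symbol other than the members, 10.9 percent were higher and 6.80 percent lower. SEMA5A, given above, and the chemokine gene CXCL12 rose in the guidance list, CXCL12 by 0.52 ± 0.17 log2 units per the authors' deposited table (adjusted p = 0.0172). Its call was lost when centred on genes of like mean (adjusted p = 0.0613, against 0.00144 to 0.610 over all settings tried). The netrin gene NTN3 fell by 0.75 ± 0.14 log2 units, per the authors' deposited table. The matrix list held 4 tested genes, of which the leucine-rich proteoglycan gene PRELP (0.78), the heparan sulphatase gene SULF1 (0.77) and the heparin-binding factor gene PTN (0.98) each fell by the log2 size given, per the authors' deposited table. With scores divided by their central spread NTN3 and SULF1 lost their call too (adjusted p = 0.0717 and 0.0666, the highest over all settings tried for each). VWA1 (0.15 ± 0.27 log2 units) and the repulsive guidance gene RGMB (-0.18 ± 0.17) did not pass. From the adhesion list the authors' deposited table held NECTIN1 (0.13 ± 0.13 log2 units), CTNND2 (0.047 ± 0.11) and CADM3 (0.15 ± 0.16), none of them called.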

How the data were processed

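The authors' deposited table compares Hox with WT in 17108 Ensembl 85 genes of the chicken build Galgal4, per the file's name. DESeq, DESeq2, Subread and featureCounts are the tools, and galGal4 the build, listed in the submitters' processing notes, with no role or version. The authors' deposited signal is the mean over libraries of counts divided by size factors, and the authors' deposited log2 values are fold changes and standard errors. The authors' Wald score equals their ratio (largest deviation 9.24e-14), and the deposited p-values follow from it, adjusted by Benjamini-Hochberg over 12574 genes (largest deviation 1.89e-15). A further 2287 genes with means up to 17.5 have no adjusted p and 2247 had a mean of 0. Symbols come from the table, which gives 1432.

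The authors' calls at an adjusted p under 0.05 were used. Intervals are the fold change ± 1.96 standard errors and cover only what those standard errors do. Scores were centred or rescaled and readjusted over all genes in Python 3.11.15 with statsmodels 0.14.6, in code tested on simulated data. Classes were compared by counts and medians, with no test. Every member is named, with full values for called ones. The members, lists and settings were chosen with earlier results of these data known. No count model could be fitted without values per library.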

Additional observations from a re-analysis of the deposited data

How the results depend on the processing

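The 6 calls among the members, 4 higher and 2 lower, were 2 with scores divided by their central spread (2 higher, 0 lower), and the count lower was 1 with genes over 10000 at 0, 1 at an adjusted p under 0.01 and 4 at under 0.1. Over all genes, 1913 calls became 312 with scores divided by their spread (237 higher, 75 lower) and 1184 at under 0.01 (431 lower), and with genes over 10000 at 0 there were 1849 higher (83.7 percent of calls, against 57.3 percent as deposited) and 361 lower. The matrix class had 1 call at a mean of at least 400, with genes over 10000 at 0 and at an adjusted p under 0.01, and 0 with scores divided by their spread. Centred on genes of like level 8 members were called (1584 of all genes) and at under 0.1 there were 9 (2491 of all genes, 1128 lower). The guidance class had 2 calls and 3 under these settings and 0 with scores divided by their spread, and its median log2 fold change became 0.29 at a mean of at least 400, where 3 members were tested. With the leucine-rich repeat families in the adhesion class, the guidance class had 0 calls and a median of 0.29, and the adhesion median became -0.0040. The medians moved with the scaling: centred on genes of like level they were -0.045 for all members, 0.21 for the adhesion, -0.091 for the matrix and -0.17 for the guidance class, and with genes over 10000 at 0 they were 0.11, 0.36, 0.088 and 0.12 in that order. Centred on the median of all genes the guidance median was 0.0013, at a mean of at least 400 the median of all members was 0.10, and with no filter on the mean the adhesion median was 0.11. Moving teneurins, contactins, ADAM proteases, glypicans and syndecans changed nothing, since none is a member. A stricter threshold drops calls by construction. A filter on the mean leaves out genes below it and also changes the adjustment, so calls can go either way. Over all genes there were 1796 calls with no filter on the mean and 1912 at a mean of at least 50. At a mean of at least 400 there were 1609 calls among 9441 genes. For the other settings the cause was not tested.

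Signs changed in members that never passed: ADAMTS13 (-0.0053) and EMILIN2 (-0.064) centred on genes of like level, LRRN2 (0.0013) centred on the median of all genes, and, with genes over 10000 at 0, PECAM1 (0.097), LINGO3 (0.025), LRRN2 (0.12), MMP11 (0.0096), COL23A1 (0.10) and SPON2 (0.076). PCDH8 and IGSF3 kept their call under the 9 alternatives. No paired analysis was possible because the table gives no values per library, and leaving out single libraries was not run for the same reason. Depth limits CLDN16 and HAPLN2, which have no adjusted p.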
